A study of Mus musculus with 48 samples.

Results

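DNA replication and S-phase genes encode the proteins that copy the genome and prepare the cell to do so. The 33 genes followed here were taken by name from the deposited table of 55357 genes, grouped by role as licensing of origins (9 genes), helicase activation (3), primase and polymerases (3), clamp and clamp loader (4), Okazaki fragment joining (2), nucleotide supply (5), chromatin assembly and methylation copying (3) and G1/S control (4). All 33 are protein coding, were found under a single identifier each and passed the filter for low counts, which kept 21390 genes. RNA was sequenced from the dorsal dentate gyrus of both hemispheres of 24 wild-type C57BL/6J mice, which had received kainate, a glutamate receptor agonist that induces status epilepticus, or saline into 1 hippocampus. The ipsilateral dentate gyrus is called the epileptogenic zone (EZ) and the contralateral the peri-ictal zone (PIZ), for saline mice too. Mice were sampled at day 3, 7 or 14, which gave 12 groups of 4 libraries by region, injection and day, each from 1 mouse and none pooled. The GEO design text gives an age of 6 to 8 weeks and the methods 8 to 10 weeks, and each injection and day had 2 male and 2 female mice, whose sex is not given by sample. Saline mice were injected in the same way, so that the EZ of both groups holds an injection site. The whole dentate gyrus was dissected, with the hilus and all glia.

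At the start of S phase, origins are licensed when Cdc6 and Cdt1 load the ring-shaped Mcm2-7 helicase, which then fires with Cdc45 and the GINS complex, and polymerases travel behind it on the Pcna clamp. E2F factors switch on many of these genes late in G1 once cyclin-dependent kinases have inactivated the RB proteins. In the adult dentate gyrus a small pool of progenitors divides throughout life, and glia divide after injury. Since bulk tissue was sequenced, more dividing cells and more RNA of these genes per cell cannot be told apart.

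The 48 libraries held 17762656 to 25712975 counts each (median 22108562.5). Levels are given as CPM, that is counts scaled by TMM to a common library total. Prox1, the transcription factor that defines dentate granule cells, was present in every library, at 84.0 to 334.6 CPM. Both libraries of mouse 21 had the lowest values, 84.0 CPM in the EZ and 101.5 CPM in the PIZ at day 7, where the other 14 libraries of that day held 184.1 to 334.6 CPM. The 4 values of a group are always given in the order of the mouse numbers of the labels. Kainate mice of day 3 were 30, 38, 42 and 44, those of day 7 were 21, 23, 26 and 35, and those of day 14 were 14, 27, 36 and 40. Saline mice of day 3 were 18, 29, 37 and 41, those of day 7 were 20, 33, 34 and 89, and those of day 14 were 24, 28, 31 and 39. Differences were tested with edgeR's quasi-likelihood method in 1 model of all 48 libraries. A gene counts as called, that is upregulated or downregulated, when its fold change exceeds 1.5 and its p, adjusted by the Benjamini-Hochberg method over the 21390 genes of the comparison, is under 0.01. The ± of a log2 fold change is its standard error from this model, with 4 mice a group. Its spread is estimated over all 48 libraries, not from the compared groups alone.

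In the EZ 3 days after injection, 29 of the 33 genes were upregulated by kainate and none was downregulated, whereas 16.1% of all genes tested were called higher and 8.61% lower. The median log2 fold change of the 33 was 1.43, against 0.03 over all genes. The summed level of the 33 genes was 481.2, 836.1, 631.3 and 412.4 CPM in the 4 kainate libraries and 226.5, 268.1, 218.6 and 235.7 CPM in the saline libraries. The groups did not overlap, and mouse 38 was the highest of all 48 libraries. Of single genes, 29 lay higher in every kainate library than in every saline library, Dut lay lower in every one, and Mcm6, Rfc5 and Ccne1 overlapped. Of all genes tested, 23.9% lay higher and 18.5% lower in this way.

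**Figure D1:**
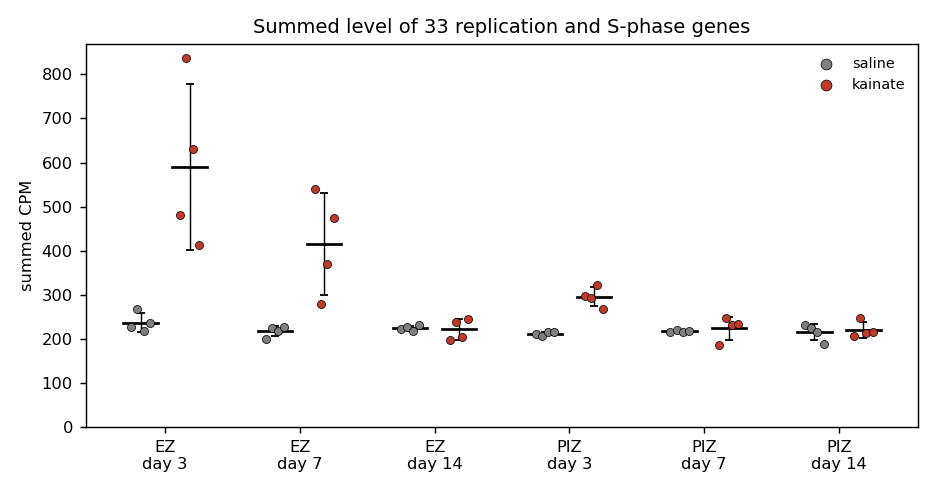
Summed CPM of the 33 replication and S-phase genes in each library (points), by region and day, for saline (grey) and kainate (red). Horizontal lines are means and bars the SD over 4 mice. EZ kainate libraries at day 3 span 412.4 to 836.1 CPM, and at day 14 kainate and saline libraries overlap.

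Of the licensing genes, 8 of 9 were upregulated in the EZ at day 3. The largest changes were those of Mcm10, which helps the loaded helicase to start unwinding (log2 fold change 2.88 ± 0.36, adjusted p = 1.3e-07), Cdc6 (2.83 ± 0.35, adjusted p = 9.66e-08) and Cdt1 (2.54 ± 0.38, adjusted p = 1.97e-06), the helicase loaders. Among the helicase subunits themselves the changes were unequal. Mcm3 (chromosome 1, positions 20870791 to 20890536, minus strand, GRCm39) stood at 23.3, 43.1, 34.5 and 20.2 CPM after kainate and at 5.08, 6.30, 4.75 and 4.82 CPM after saline. Mcm2 stood at 19.3, 36.4, 26.5 and 15.5 CPM against 6.14, 6.03, 5.35 and 5.21 CPM. Both sets of libraries were fully separated, with log2 fold changes of 2.53 ± 0.34 for Mcm3 (adjusted p = 4.98e-07) and 2.10 ± 0.23 for Mcm2 (adjusted p = 2.3e-08). Mcm5 rose by 2.04 ± 0.24, Mcm4 by 1.37 ± 0.16 and Mcm7 by 1.27 ± 0.17 on the log2 scale. Mcm6, the helicase subunit with the highest level per length in saline mice (5.73 CPM per kb of exon over 24 libraries, against 0.619 for Mcm3), was the exception. It stood at 31.7, 61.4, 46.4 and 29.4 CPM after kainate and at 28.2, 35.2, 27.2 and 35.2 CPM after saline. Mice 38 and 42 lay above all saline libraries and mice 30 and 44 among them, and the log2 fold change of 0.42 ± 0.23 did not pass the test (adjusted p = 0.131).

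All 3 genes of helicase activation were upregulated at day 3 in the EZ. Gins2, a subunit of the GINS complex, stood at 5.89, 11.6, 8.49 and 4.76 CPM after kainate and at 1.77, 2.61, 2.31 and 2.63 CPM after saline, with a log2 fold change of 1.72 ± 0.26 (adjusted p = 2.34e-06). Gins1, of the same complex, rose by 2.09 ± 0.29 and Cdc45 by 1.73 ± 0.24 on the log2 scale. The primase and polymerase genes rose too. Pola1, the catalytic subunit of the polymerase that extends primers, stood at 11.3, 18.2, 13.4 and 8.21 CPM against 5.65, 6.53, 6.73 and 5.02 CPM, without overlap and with a log2 fold change of 1.09 ± 0.18 (adjusted p = 6.13e-06). Pole, the catalytic subunit of the leading-strand polymerase, rose by 1.85 ± 0.23 and Prim1, the primase, by 0.90 ± 0.16.

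Pcna, the sliding clamp that is widely used as a proliferation marker, is on chromosome 2 (positions 132091082 to 132095234, minus strand, GRCm39). It stood at 59.1, 93.7, 71.2 and 43.6 CPM after kainate and at 29.2, 34.5, 30.3 and 31.5 CPM after saline in the EZ at day 3. No library overlapped, and the log2 fold change was 1.09 ± 0.15 (adjusted p = 4.23e-07). Of the clamp loader subunits, Rfc4 rose by 1.24 ± 0.22 on the log2 scale and Rfc3 rose too (adjusted p = 1.2e-05), while Rfc5 did not pass the test (0.18 ± 0.12, adjusted p = 0.246). Both genes of Okazaki fragment joining rose. Fen1, the flap endonuclease, stood at 15.4, 23.2, 17.7 and 12.9 CPM against 10.3, 9.41, 8.95 and 8.38 CPM (log2 fold change 0.90 ± 0.14, adjusted p = 3.89e-06), and Lig1, the ligase that seals the nicks, rose by 1.77 ± 0.19.

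The nucleotide supply genes held both the largest and the lowest log2 fold change of the 33. Tk1, thymidine kinase of the salvage route (chromosome 11, positions 117702770 to 117717042, minus strand, GRCm39), stood at 13.5, 22.3, 14.4 and 9.22 CPM after kainate in the EZ at day 3 and at 0.662, 3.02, 0.784 and 1.02 CPM after saline. The log2 fold change was 3.43 ± 0.47 (10.8-fold, adjusted p = 4.74e-07), and saline mouse 29 lay apart from the other saline libraries. Rrm2, the small subunit of ribonucleotide reductase whose amount limits the enzyme, stood at 22.8, 54.8, 35.3 and 20.2 CPM against 2.74, 6.57, 2.63 and 2.24 CPM (log2 fold change 3.23 ± 0.44, adjusted p = 4.41e-07), again with mouse 29 highest among saline libraries. Rrm1, the large subunit of the same enzyme, stood at 43.6, 75.1, 53.3 and 37.5 CPM against 17.8, 24.3, 17.6 and 19.3 CPM. It rose less, by 1.41 ± 0.15 on the log2 scale (adjusted p = 1.61e-08), as did Tyms, the thymidylate synthase (1.43 ± 0.20). Dut, which removes dUTP so that uracil is not built into DNA, moved the other way. It stood at 11.4, 13.7, 15.7 and 16.3 CPM after kainate and at 21.1, 18.6, 17.2 and 19 CPM after saline, so that every kainate library was below every saline library, but its log2 fold change of -0.41 ± 0.16 did not pass the thresholds (adjusted p = 0.0378).

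All 3 genes of chromatin assembly and methylation copying rose in the EZ at day 3. Uhrf1, which binds hemimethylated DNA behind the fork and recruits the maintenance methyltransferase, stood at 18.7, 37, 24.7 and 15.3 CPM after kainate and at 2.07, 3.47, 2.81 and 2.09 CPM after saline (log2 fold change 3.19 ± 0.35, 9.14-fold, adjusted p = 1.87e-08). Chaf1b, a subunit of the CAF-1 histone chaperone, rose by 3.10 ± 0.40 (adjusted p = 2.12e-07), while Chaf1a, its large subunit, rose less. Chaf1a stood at 10.3, 18.2, 16.1 and 10.6 CPM against 5.87, 7.29, 5.53 and 6.28 CPM, with a log2 fold change of 1.14 ± 0.15 (adjusted p = 1.86e-07). The lowest Chaf1b count in any library was 0, so that its fold changes rest on few reads in saline mice.

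Of the G1/S control genes, 3 of 4 rose. E2f1, an activator of the E2F family, stood at 8.38, 16.3, 11 and 9.30 CPM after kainate and at 6.27, 5.40, 4.29 and 5.55 CPM after saline, with a log2 fold change of 1.06 ± 0.18 (adjusted p = 1.54e-05). E2f2, of the same family, stood at 5.62, 9.83, 6.96 and 5.47 CPM against 2.30, 2.57, 1.89 and 2.00 CPM and rose by 1.67 ± 0.25 (adjusted p = 1.63e-06). The cyclin E genes, whose products drive entry into S phase with Cdk2, differed from each other. Ccne2 rose by 1.26 ± 0.22 (adjusted p = 1.74e-05), whereas Ccne1 stood at 13.1, 12.4, 13.1 and 13.5 CPM against 11.8, 12.1, 11.7 and 12.5 CPM and did not pass the test (0.12 ± 0.11, adjusted p = 0.424).

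**Figure D2:**
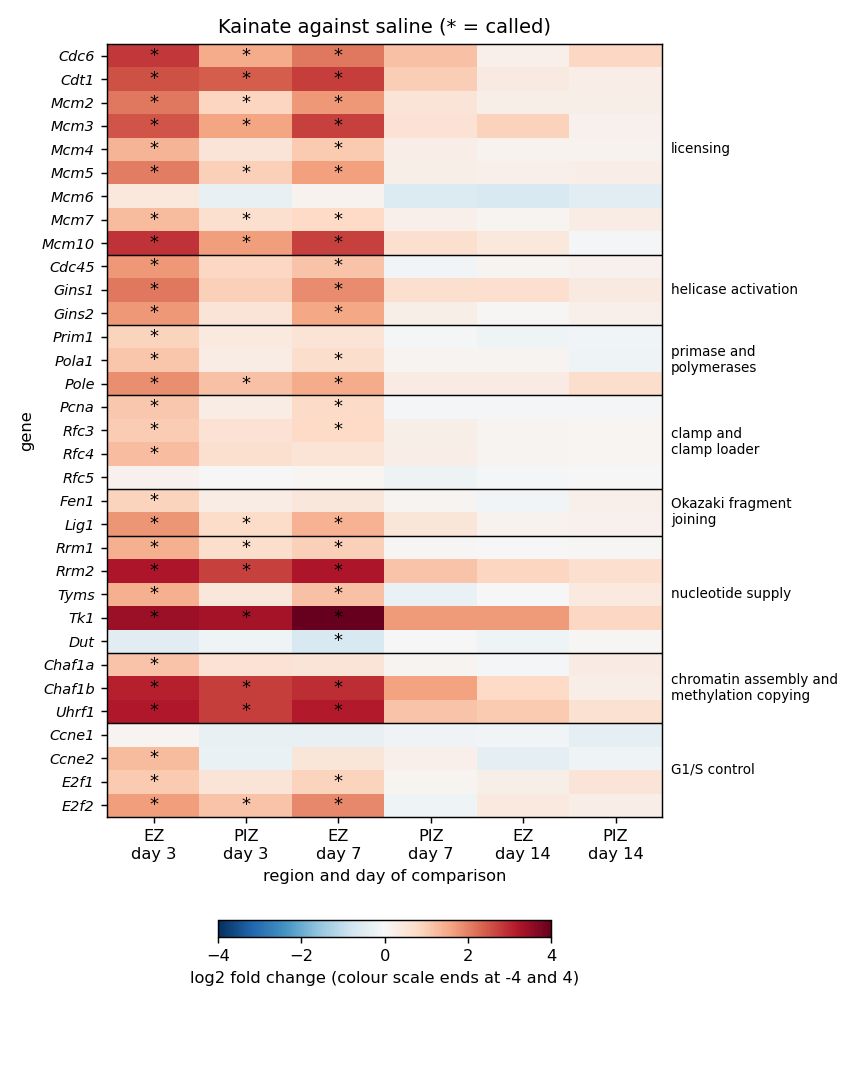
Log2 fold change of kainate against saline for each of the 33 genes (rows, grouped by role) in the 6 comparisons (columns), as colour. Asterisks mark calls, which are 29 in the EZ at day 3, 15 in the PIZ at day 3 and 25 in the EZ at day 7, where Dut is the gene called lower.

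Across the 33 genes the change was graded with the level in saline mice. The level per length in the 16 saline libraries of days 7 and 14 (log2 CPM per kb of exon), which did not enter the comparison, had a Pearson r of -0.796 and a Spearman rho of -0.772 with the log2 fold change in the EZ at day 3. The points are 33 genes measured in the same libraries and are not independent replicates. Genes with the lowest saline level over all 24 saline libraries, such as Tk1 (0.0709 CPM per kb), Chaf1b (0.0778 CPM per kb) and Mcm10 (0.0657 CPM per kb), had log2 fold changes of 3.43, 3.10 and 2.88. Genes with a high saline level, such as Dut (6.70 CPM per kb), Mcm6 (5.73 CPM per kb) and Ccne1 (3.47 CPM per kb), had values of -0.41, 0.42 and 0.12. Pcna, with the highest level per length of the 33 (12.7 CPM per kb), rose all the same.

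Promoters were read for all 33 genes from the GRCm39 genome, as 250 bases before to 50 bases after the start of the canonical Gencode M39 transcript. An E2F word, that is TTTCCCGC, TTTCGCGC, TTTGCCGC or TTTGGCGC on either strand, was present in 12 of the 33 windows (36.4%) and in 2.82% of the 21770 gene windows of the genome. The CCAAT box on either strand was present in 19 of 33 (57.6%, against 39.9% of all), and the CHR word TTTGAA in 3 of 33 (9.09%, against 17.1% of all). The median GC content was 55.0% in the 33 windows and 54.3% in all. The E2F word was in 6 of the 9 licensing genes and in E2f1 and E2f2 themselves, and 12 of the 20 words found lay after the transcription start. Windows are shown for the member with the highest mean CPM of the licensing, clamp, nucleotide supply and G1/S roles, and for Mcm3 and Tk1, which were added after their values were seen because they changed strongly. E2F words are in capitals, and overlapping words form a single run.
Mcm6, chr1:128287403-128287702, minus strand: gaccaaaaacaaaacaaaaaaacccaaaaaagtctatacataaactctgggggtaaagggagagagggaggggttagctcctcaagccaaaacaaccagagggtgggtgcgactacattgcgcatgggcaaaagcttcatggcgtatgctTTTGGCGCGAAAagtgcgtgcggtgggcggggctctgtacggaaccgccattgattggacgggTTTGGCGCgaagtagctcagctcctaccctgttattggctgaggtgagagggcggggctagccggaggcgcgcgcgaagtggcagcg
Mcm3, chr1:20890487-20890786, minus strand: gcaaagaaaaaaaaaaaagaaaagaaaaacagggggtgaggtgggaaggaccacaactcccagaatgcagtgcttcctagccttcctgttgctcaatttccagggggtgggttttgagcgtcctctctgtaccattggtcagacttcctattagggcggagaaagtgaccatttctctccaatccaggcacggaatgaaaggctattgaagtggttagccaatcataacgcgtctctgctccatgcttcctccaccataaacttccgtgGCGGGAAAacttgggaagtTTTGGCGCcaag
Pcna, chr2:132095185-132095484, minus strand: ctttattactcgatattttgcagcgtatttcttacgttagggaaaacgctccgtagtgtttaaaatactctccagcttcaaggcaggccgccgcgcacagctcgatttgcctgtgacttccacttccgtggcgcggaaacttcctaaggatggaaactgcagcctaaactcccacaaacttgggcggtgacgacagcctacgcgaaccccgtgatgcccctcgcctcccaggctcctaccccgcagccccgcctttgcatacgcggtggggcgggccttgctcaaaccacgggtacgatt
Rrm1, chr7:102090640-102090939, plus strand: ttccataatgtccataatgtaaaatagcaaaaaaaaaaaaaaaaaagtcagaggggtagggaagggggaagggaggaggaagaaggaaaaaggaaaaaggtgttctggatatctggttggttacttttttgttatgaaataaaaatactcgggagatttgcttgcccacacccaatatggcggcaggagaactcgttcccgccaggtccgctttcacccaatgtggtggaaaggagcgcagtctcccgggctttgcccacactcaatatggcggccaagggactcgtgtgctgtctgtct
Tk1, chr11:117716869-117717168, minus strand: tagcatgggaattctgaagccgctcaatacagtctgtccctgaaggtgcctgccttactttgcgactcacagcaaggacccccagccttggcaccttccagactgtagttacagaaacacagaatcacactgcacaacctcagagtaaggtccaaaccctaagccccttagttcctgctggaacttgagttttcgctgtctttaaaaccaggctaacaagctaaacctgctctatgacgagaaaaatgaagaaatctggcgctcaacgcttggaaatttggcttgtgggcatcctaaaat
Ccne1, chr7:37806988-37807287, minus strand: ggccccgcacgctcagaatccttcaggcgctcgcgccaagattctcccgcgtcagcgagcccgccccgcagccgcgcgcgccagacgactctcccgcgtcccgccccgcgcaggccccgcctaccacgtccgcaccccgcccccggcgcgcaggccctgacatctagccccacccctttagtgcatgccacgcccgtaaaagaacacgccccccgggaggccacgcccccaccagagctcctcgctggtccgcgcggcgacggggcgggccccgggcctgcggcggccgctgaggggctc
Mcm6 and Mcm3 hold E2F words and the other 4 windows hold none. Mcm6 has 3, of which a pair overlaps, starting 100, 96 and 37 bases before the start, and Mcm3 has 2, starting at bases 20 and 39 of the transcript. Presence of the word did not sort the genes by their change. The median log2 fold change in the EZ at day 3 was 1.76 in the 12 genes with the word (lowest 0.42, Mcm6) and 1.41 in the 21 without (highest 3.43, Tk1). A match of letters is not a measured binding site, and a window without these letters says nothing about the factor.

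In the PIZ, which had received no injection, 15 of the 33 genes were upregulated 3 days after kainate and none was downregulated, against 7.12% of all genes called higher and 1.57% lower. The median log2 fold change was 0.65 (0.02 over all genes). The summed level was 298.3, 294.0, 323.7 and 269.3 CPM after kainate and 211.6, 208.1, 215.1 and 215.0 CPM after saline, without overlap, and 25 single genes were higher in every kainate library than in every saline library, as were 17.1% of all genes tested. All 15 were also called in the EZ at day 3 and at day 7. Uhrf1 stood at 8.77, 7.35, 10.7 and 6.83 CPM against 0.882, 1.21, 1.47 and 1.32 CPM (log2 fold change 2.77 ± 0.36, adjusted p = 1.39e-06). Tk1 stood at 3.97, 2.91, 3.53 and 3.52 CPM against 0.371, 0.340, 0.303 and 0.364 CPM (3.32 ± 0.54, adjusted p = 2.92e-05). Rrm2 stood at 8.72, 11, 15.5 and 7.75 CPM against 0.882, 1.65, 1.95 and 1.87 CPM (2.75 ± 0.45, adjusted p = 3.28e-05). These 3 genes and Chaf1b (2.77 ± 0.46) and Cdt1 (2.44 ± 0.42) had the largest PIZ changes.

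By role, the PIZ calls at day 3 fell on 7 of 9 licensing genes, 3 of 5 nucleotide supply genes and 2 of 3 chromatin genes, on Pole, Lig1 and E2f2, and on none of the genes of helicase activation or of the clamp and its loader. Mcm3 stood at 11.1, 9.29, 10.6 and 7.75 CPM against 3.71, 3.16, 2.86 and 3.19 CPM (log2 fold change 1.58 ± 0.35, adjusted p = 9.98e-04). Rrm1 stood at 27.1, 26.5, 28.3 and 27.8 CPM against 16, 16.9, 16.6 and 18.2 CPM (0.70 ± 0.15, adjusted p = 8.3e-04), and E2f2 at 3.40, 2.26, 2.72 and 3.04 CPM against 1.16, 1.36, 1.21 and 1.46 CPM (1.13 ± 0.26, adjusted p = 0.00147). In all 3 the groups were separated. Pcna was higher in every kainate library too, at 37.2, 36.2, 39.4 and 34.4 CPM against 30.5, 27, 31.4 and 29.9 CPM, but its log2 fold change of 0.31 ± 0.15 did not pass the test (adjusted p = 0.123). E2f1 stood at 7.09, 6.59, 7.06 and 5.08 CPM against 4.73, 4.52, 4.03 and 4.69 CPM and likewise did not pass (0.52 ± 0.19, adjusted p = 0.0381). Gins1 and Cdc45, of helicase activation, were also higher in every kainate library. Their log2 fold changes of 0.94 and 0.84 were above that of Rrm1 but did not pass the test. The median log2 fold change was 0.84 for helicase activation and 0.94 for licensing, so the calls do not set these roles apart. Gins2, Pola1, Fen1 and Chaf1a had log2 fold changes of 0.50, 0.31, 0.31 and 0.57 without a call, and those of Mcm6, Dut, Ccne1 and Ccne2 lay between -0.29 and -0.16. The count was 16 with DESeq2 (background 7.66%) and lay between 11 and 17 when single mice were left out, with Cdc6, Lig1, Mcm2, Mcm5 and Mcm7 lost in some of these fits.

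The log2 fold change at day 3 was higher in the EZ than in the PIZ for 32 of the 33 genes, with a median difference of 0.66 (0.44 without mouse 38, and up to 0.86 without other mice), but in the test of the difference between sides no gene was called (background 0.0374% higher and 0.0281% lower). At an unadjusted p under 0.05, 22 of the 33 had a higher log2 fold change in the EZ, as had 9.8% of all genes tested. DESeq2 called 1 gene (background 0.255%) and limma-voom with quality weights 17 (background 4.08%). With the mouse as a block, which pairs both sides of an animal, 1 gene was called (background 0.0888%). At a looser adjusted p, under 0.05, edgeR also called 1 (background 0.323%). The gene called by DESeq2 and under the block was Ccne2, named after its values were seen. It spanned 4.93 to 9.14 CPM in the EZ of kainate mice against 2.19 to 3.31 CPM in saline mice, and 2.16 to 3.60 CPM in the PIZ against 2.92 to 4.97 CPM. The difference between sides was 1.54 ± 0.31 on the log2 scale (adjusted p = 0.0151 without and 0.0022 with the block). For Tk1, Uhrf1, Rrm2 and Cdt1 the differences between sides at day 3 were 0.11 ± 0.84, 0.42 ± 0.49, 0.48 ± 0.61 and 0.10 ± 0.62, with errors as large as the values or larger. Their kainate means were 14.8, 23.9, 33.3 and 6.62 CPM in the EZ against 3.48, 8.42, 10.7 and 2.57 CPM in the PIZ. Their saline means were higher in the EZ too, at 1.37, 2.61, 3.54 and 1.14 CPM against 0.345, 1.22, 1.59 and 0.470 CPM.

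At day 7 in the EZ, 24 genes were upregulated and Dut was downregulated, where 20.6% of all genes were called higher and 11.9% lower. The median log2 fold change was 1.13. The summed level was 539.1, 278.5, 370.0 and 473.7 CPM after kainate and 200.7, 225.5, 219.2 and 227.1 CPM after saline, again without overlap. Of single genes, 23 lay higher in every kainate library than in every saline library and Dut lay lower, as did 23.7% and 20.1% of all genes tested. All 24 had been called at day 3, and the 5 called at day 3 alone were Prim1, Rfc4, Fen1, Chaf1a and Ccne2. Tk1 stood at 13.9, 2.04, 6.51 and 11 CPM against 0.357, 0.174, 0.310 and 0.0942 CPM (log2 fold change 5.16 ± 0.57, adjusted p = 2.21e-08). The groups were fully separated. Every saline library of day 7 was below every saline library of day 3 (lowest 0.662 CPM), while the kainate libraries of the 2 days overlapped. The lowest Tk1 count in any library was 2, so that this ratio is imprecise. Uhrf1 stood at 18.5, 4.74, 10.9 and 15.5 CPM against 1.07, 1.35, 1.39 and 1.69 CPM (3.17 ± 0.36, adjusted p = 2.46e-08), and Rrm2 at 29.2, 4.90, 12.6 and 26 CPM against 1.43, 1.78, 2.06 and 2.50 CPM (3.22 ± 0.45, adjusted p = 2.5e-07).

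The order of the mice was the same in these genes, with mouse 21 high and mouse 23 low. Mcm3 stood at 38.8, 11.2, 19.6 and 28.5 CPM against 4.24, 4.04, 3.20 and 3.30 CPM in the EZ at day 7 (2.73 ± 0.35, adjusted p = 7.16e-08). Mcm2 stood at 22.6, 8.11, 14.7 and 17.6 CPM against 5.21, 3.91, 4.75 and 4.94 CPM (1.75 ± 0.23, adjusted p = 1.32e-07). Pcna stood at 67.1, 35.7, 45.2 and 55.3 CPM against 28.7, 28.9, 27.8 and 34.5 CPM (0.76 ± 0.15, adjusted p = 3.7e-05). Each of these groups was separated, although the lowest Pcna library after kainate was close to the highest after saline. When only the groups compared were fitted, 19 genes were called higher, without Cdc45, Mcm7, Pcna, Pola1 and Rfc3. Dut (chromosome 2, positions 125089110 to 125100966, plus strand, GRCm39) ran against this order, at 9.88, 16.6, 13.5 and 9.38 CPM after kainate against 17.8, 18.2, 18.5 and 21 CPM after saline. It fell by 0.62 ± 0.16 on the log2 scale (adjusted p = 0.00171), and the call was lost without mouse 21, 35 or 89, when libraries were scaled by size only and when only the 2 groups compared were fitted. E2f1 stood at 11.6, 7.70, 8.03 and 11.3 CPM against 5.82, 4.43, 4.80 and 5.70 CPM (0.90 ± 0.18, adjusted p = 8.49e-05), and E2f2 at 9.25, 3.16, 4.41 and 7.22 CPM against 1.53, 2.04, 1.44 and 1.37 CPM (1.91 ± 0.25, adjusted p = 1.09e-07).

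**Figure D3:**
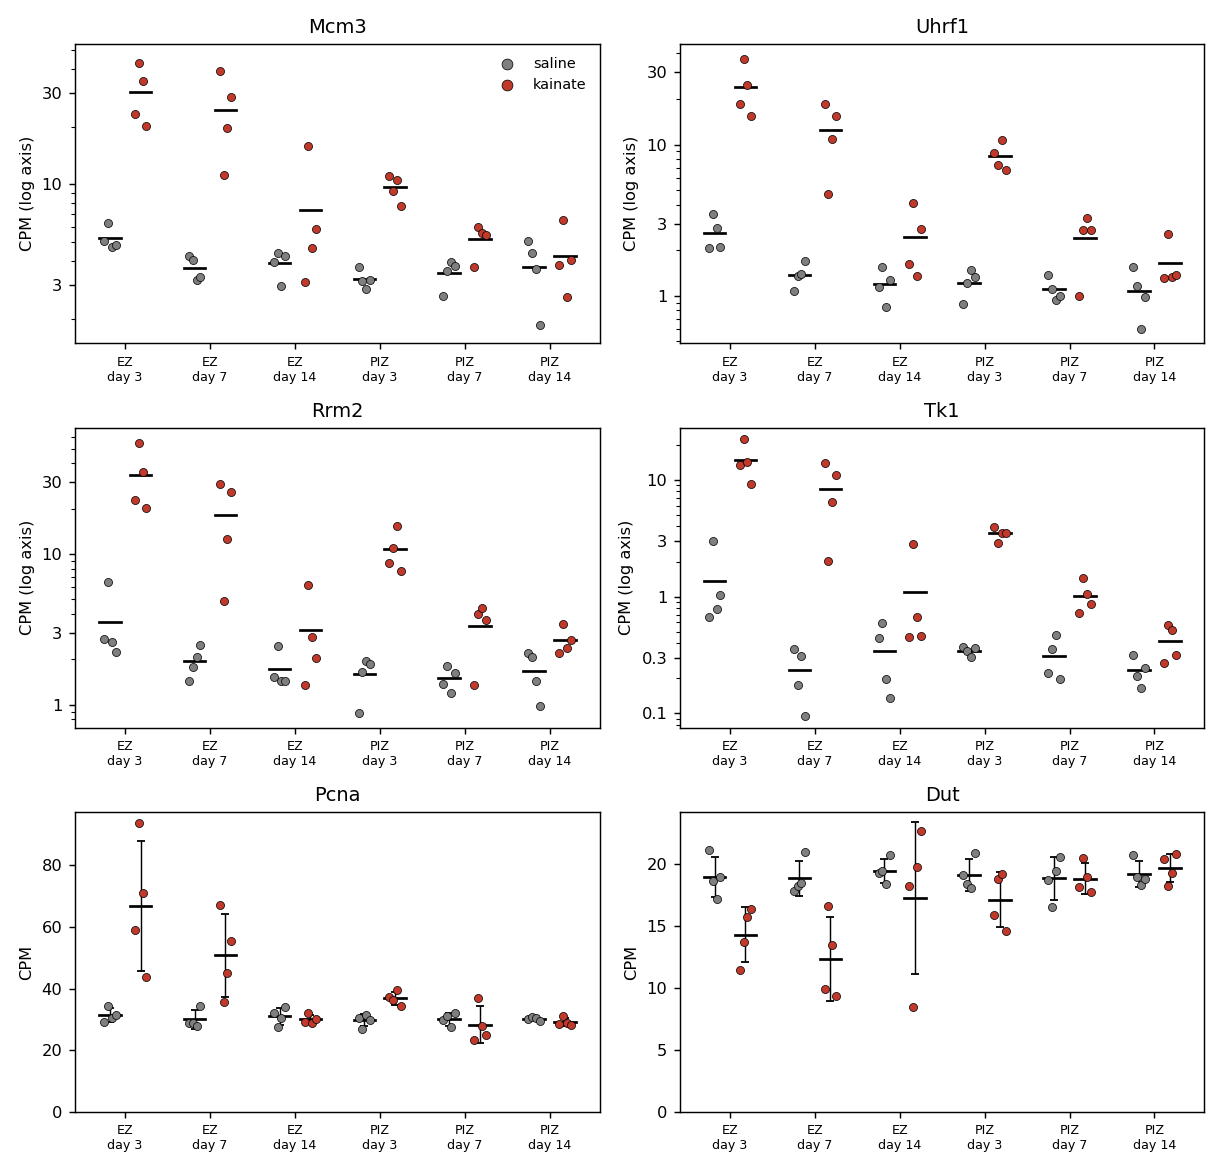
CPM of Mcm3, Uhrf1, Rrm2 and Tk1 (log axes) and of Pcna and Dut (linear axes from 0, with SD bars) in each of the 48 libraries, by region and day, for saline (grey) and kainate (red). Horizontal lines are means of 4 mice. Tk1 is between 9.22 and 22.3 CPM after kainate in the EZ at day 3, while Dut is below its saline values there.

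The most abundant members of the other roles differed in their change. In the EZ at day 7, Gins2 stood at 7.96, 3.47, 4.41 and 7.84 CPM against 1.38, 2.17, 2.27 and 2.26 CPM (log2 fold change 1.55 ± 0.26, adjusted p = 6.09e-06), and Rrm1 at 44.3, 24.3, 29.2 and 45.8 CPM against 16.1, 19.6, 18.7 and 20.5 CPM (0.94 ± 0.15, adjusted p = 2.34e-06). Both were separated. Pola1 stood at 11, 6.37, 7.06 and 10.5 CPM against 4.80, 5.17, 5.06 and 6.54 CPM, with mouse 23 below the highest saline library, and was called (0.70 ± 0.18, adjusted p = 0.00114), but not without mouse 21. Fen1, at 14.4, 9.79, 12.2 and 14.3 CPM against 8.88, 8.64, 10.7 and 8.80 CPM, and Chaf1a, at 12, 7.90, 9.59 and 10.4 CPM against 7.45, 7.69, 7.22 and 5.79 CPM, had adjusted p values of 0.00616 and 0.00316 but fold changes of 1.37 and 1.42, under the threshold. Mcm6 stood at 36.3, 25.9, 36 and 31.7 CPM against 23.7, 35.7, 30.4 and 28.5 CPM (0.13 ± 0.23, adjusted p = 0.643). Ccne1 stood at 7.64, 11.4, 10.5 and 7.88 CPM against 9.49, 10.9, 10.8 and 14.3 CPM (-0.28 ± 0.12, adjusted p = 0.0355), so that for both the groups overlapped. The changes at day 3 and day 7 in the EZ, which come from different mice, correlated over the 33 genes with r of 0.946 and rho of 0.957, as a description of genes that share libraries. The signed log2 fold change was lower at day 7 than at day 3 for 29 of the 33, Dut and Ccne1 among them, with a median difference of -0.32 (-0.11 without mouse 38 and -0.17 without mouse 23), and no gene was called in the test of that difference with edgeR or DESeq2 (background 0.112% higher and 0.0327% lower, 1 higher and 6 lower at an unadjusted p under 0.05 against 7.95% and 4.04% of all genes), while limma-voom called 1 lower (background 1.88%).

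In the PIZ at day 7 no member was called (background 0.15% higher and 0.0514% lower), by edgeR or by DESeq2, and limma-voom called 1 higher (background 3.23%). At an unadjusted p under 0.05 there were 9 higher and 1 lower, as were 9.18% and 5.33% of all genes tested. The summed level was 186.9, 246.7, 232.3 and 233.5 CPM after kainate and 216.7, 221.3, 216.9 and 218.7 CPM after saline. Mouse 21, which had the highest EZ level of the day, had the lowest PIZ level of all kainate libraries. Cdc6, Lig1, Tk1 and Chaf1b were higher in every kainate library and Mcm6 was lower in every one, where 7.63% of all genes tested were above and 5.26% below in this way. Tk1 stood at 0.724, 1.45, 1.04 and 0.864 CPM against 0.219, 0.353, 0.467 and 0.198 CPM (log2 fold change 1.70 ± 0.60, adjusted p = 0.154), and Mcm6 at 14, 24.5, 24.3 and 27.6 CPM against 32.5, 36.2, 34.7 and 29.2 CPM (-0.55 ± 0.24, adjusted p = 0.257). The difference between the day 7 and day 3 effects in the PIZ was called for no member with edgeR's model of all 48 libraries, DESeq2 or limma-voom (background 0.014% higher and 0.00935% lower), with 11 lower at an unadjusted p under 0.05 (5.47% of all genes). An edgeR fit of only the groups compared called Rrm1 lower.

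The sides differed at day 7. The log2 fold change was higher in the EZ than in the PIZ for 31 of the 33 genes (Mcm6 among them, at 0.13 and -0.55), and 12 passed the test of the difference, where 7% of all genes were called higher and 2.88% lower. These were Mcm2, Mcm3, Mcm5, Mcm10, Cdc45, Pole, Pcna, Rrm1, Tyms, Tk1, Uhrf1 and E2f2. E2f2 had the smallest adjusted p. In the PIZ it stood at 1.04, 1.59, 2.05 and 1.58 CPM after kainate and at 1.81, 1.61, 2.13 and 1.49 CPM after saline, so that the groups overlapped, and the difference between sides was 2.07 ± 0.37 on the log2 scale (adjusted p = 0.00159). For Tyms it was 1.46 ± 0.29 (adjusted p = 0.0019), for Mcm3 2.15 ± 0.49 (adjusted p = 0.00304) and for Tk1 3.45 ± 0.89 (adjusted p = 0.00572). With the mouse as a block 8 genes were called (background 6.95%), without Mcm2, Cdc45, Pole and Pcna, and at an adjusted p under 0.05 it was 19 higher and 1 lower (background 13.1% and 7.46%). DESeq2 called 15 (background 10.7%) and limma-voom 20 higher and 1 lower (background 14.3% and 9.7%). The count rested on single animals. It was 0 without mouse 21, whose libraries had the lowest Prox1 levels of all 48, 1 without mouse 20, 2 without mouse 34, 35 or 89, 5 without mouse 33, 13 without mouse 26 and 18 without mouse 23. In every one of these fits the median difference stayed positive, between 0.70 and 1.14. The summed level of the EZ was 2.88, 1.13, 1.59 and 2.03 times that of the PIZ in the 4 kainate mice at day 7 and 1.61, 2.84, 1.95 and 1.53 times at day 3. In the 24 pairs this ratio was at most 1.29 outside those 2 groups.

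**Figure D4:**
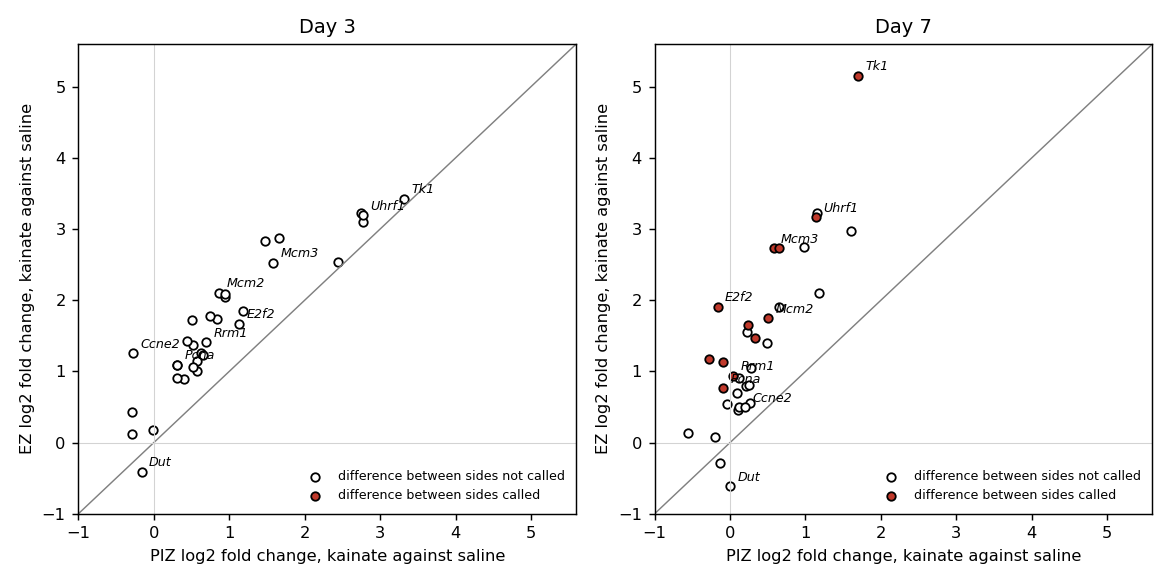
Log2 fold change of kainate against saline in the PIZ (horizontal) and the EZ (vertical) for each of the 33 genes at day 3 and day 7, with the line of equal change. Filled points are the genes whose difference between sides was called, none at day 3 and 12 at day 7. Of the 33 points, 32 lie above the line at day 3 and 31 at day 7.

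At day 14 no member was called in either zone. In the EZ the background was 2.32% higher and 0.0374% lower, 4 genes were higher and 1 lower at an unadjusted p under 0.05 (13.2% and 4.82% of all genes), and DESeq2 and limma-voom called none. In the PIZ the background was 0.00935% higher and 0.00468% lower, with the same counts at an unadjusted p under 0.05 (3.29% and 2.68% of all genes) and none called by DESeq2 or limma-voom. In the PIZ, Mcm7, Pole, Rrm2, Chaf1a and E2f1 were higher and Ccne1 lower in every kainate library than in every saline library, as were 3.7% and 3.47% of all genes tested. In the EZ this held for Gins1, which was higher (4.58% of all genes). The summed level in the EZ was 198.7, 238.9, 203.8 and 246.2 CPM after kainate and 221.8, 227, 219.2 and 230.9 CPM after saline. Tk1 stood there at 0.454, 2.81, 0.674 and 0.460 CPM against 0.445, 0.599, 0.197 and 0.136 CPM (log2 fold change 1.69 ± 0.58, adjusted p = 0.088). Mcm3 stood at 3.13, 15.9, 4.66 and 5.85 CPM against 3.96, 4.40, 2.95 and 4.25 CPM (0.93 ± 0.34, adjusted p = 0.122), and Uhrf1 at 1.61, 4.12, 1.35 and 2.76 CPM against 1.14, 1.55, 0.837 and 1.27 CPM (1.05 ± 0.37, adjusted p = 0.1). In each the highest value came from mouse 27, whose Dut level was the lowest of the day, at 8.43 CPM against 18.2 to 22.7 CPM in the other 3 kainate mice. The difference between sides was called for no member (background 0% in both directions, 1 lower at an unadjusted p under 0.05 against 1.52% of all genes, none by DESeq2 or limma-voom).

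The decline from day 7 to day 14 in the EZ was not called for any member by edgeR (background 0.122% higher and 0.15% lower), but 29 of the 33 were lower at an unadjusted p under 0.05, where 18.6% of all genes were, and the median difference of effects was -1.01 on the log2 scale. The smallest adjusted p, that of Mcm2, was 0.0103. At an adjusted p under 0.05 edgeR called 24 lower (background 7.28%). DESeq2 called 15 lower (background 3.32%) and limma-voom 25 lower and 1 higher (background 18.2% and 11.3%). The edgeR count was 21 without mouse 23, 19 lower and 1 higher without mouse 27 and 14 without mouse 26, and 0 without any other mouse of these groups.

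In saline mice no member was called between EZ and PIZ at any day by edgeR, DESeq2 or limma-voom. The background was 0.0281% higher and 0% lower at day 3 and 0% at days 7 and 14, and 7, 0 and 1 of the 33 had an unadjusted p under 0.05. Of all genes, 0.963% were higher and 0.556% lower in this way at day 7. At day 14 the shares were 1.18% and 1.24%, and the 1 member was lower in the EZ. All 7 at day 3 were higher in the EZ (4.11% of all genes), and the largest difference was that of Tk1, at 0.662, 3.02, 0.784 and 1.02 CPM in the EZ against 0.371, 0.340, 0.303 and 0.364 CPM in the PIZ of the same mice. The log2 difference was 1.98 ± 0.56 (adjusted p = 0.353), and the zones did not overlap. Against the saline EZ of day 14, the saline EZ of day 3 had no member called by edgeR, DESeq2 or limma-voom (background 0% in both directions, 3 higher at an unadjusted p under 0.05 against 2.8% of all genes), with Tk1 at 1.99 ± 0.57 (adjusted p = 0.335) and Uhrf1 at 1.12 ± 0.37 (adjusted p = 0.453). In the same saline mice at day 3 the summed astrocyte markers were 2796 to 5331 CPM in the EZ and 1452 to 1742 CPM in the PIZ, the microglia markers 534.9 to 906.1 CPM and 314.0 to 429.2 CPM, and the mitosis genes 47.5 to 122.4 CPM and 26.6 to 30.1 CPM. None of these ranges overlapped between the zones, and their part in the Tk1 values was not tested.

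In several groups most genes had their highest or lowest value in the same mouse. In the EZ of kainate mice at day 3, mouse 38 held the highest value of 31 of the 33 genes and mouse 44 the lowest of 27. At day 7, mouse 21 held the highest of 26 and mouse 23 the lowest of 30. In the PIZ at day 7 the ranks were otherwise, with mouse 21 lowest in 24 genes. At day 14, mouse 27 was highest in 23 genes in the EZ and in 22 in the PIZ. In the saline EZ at day 3, mouse 29 was highest in 21. In other groups the highest values were spread over the mice, as in the saline EZ at day 7, where no mouse held more than 10. Genes measured in the same libraries are not independent, so these counts describe the libraries and were not tested.

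Other genes of replication were read from a fixed list of 52, all tested. In the EZ at day 3, 23 were upregulated and none downregulated (16.1% and 8.61% of all genes), with a median log2 fold change of 0.56. Dnmt1, the maintenance methyltransferase, had the smallest p and rose by 0.71 ± 0.08 on the log2 scale (adjusted p = 1.9e-08). In the PIZ at day 3, 13 were upregulated (7.12% of all genes, median 0.12), and in the EZ at day 7, 20 were upregulated and 1 downregulated (20.6% and 11.9% of all genes, median 0.43). The same shares of all genes stand behind the counts of the lists that follow. The one downregulated was Cdc7, the kinase that fires licensed origins (-0.72 on the log2 scale). None was called in the PIZ at day 7 or in either zone at day 14. Among the members of stable complexes some did not move with the 33. In the EZ at day 3, named after their values were seen, Orc2, Orc3, Orc4, Orc5 and Orc6 of the origin recognition complex had log2 fold changes between -0.44 and 0.04 without a call, while Orc1 rose by 2.23. Of the mitosis genes, 21 of 21 rose in the EZ at day 3 (median 2.86). The mitotic kinases Aurka (2.35 ± 0.26) and Plk1 (2.64 ± 0.31) had the smallest p values. The counts were 19 in the PIZ at day 3 (median 2.79), 21 in the EZ at day 7 (median 3.40) and 0 in the PIZ at day 7 (median 1.15).

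Of 20 genes of the E2F, RB and cyclin-CDK group, 10 rose and 1 fell in the EZ at day 3, against 6 and 0 in the PIZ at day 3 and 9 and 0 in the EZ at day 7. Rbl1, the RB relative p107, rose by 2.33 ± 0.30 (adjusted p = 2.2e-07) and Cdk4, a kinase of G1, by 0.88 ± 0.12 (adjusted p = 3.7e-07). Ccnd2, a D-type cyclin, fell by 0.63 ± 0.20 (adjusted p = 0.0079). Of 7 CDK inhibitors, 4 rose in the EZ at day 3, 2 in the PIZ at day 3 and 5 in the EZ at day 7. Cdkn1a, the p53 target p21, rose by 2.90 ± 0.42 in the EZ at day 3, beside Cdkn2c (1.74 ± 0.30), Cdkn2b (2.00 ± 0.36) and Cdkn2a (2.93 ± 0.65), of which Cdkn2a had 0 counts in 15 of the 48 libraries. The 2 in the PIZ were Cdkn2c (1.64 ± 0.31) and Cdkn2a (3.58 ± 1.02), and at day 7 in the EZ Cdkn1c joined the 4 of day 3. Of 8 S-phase checkpoint genes, Chek1 was the one called in the EZ at day 3 (1.55 ± 0.28, adjusted p = 2.9e-05), a share below that of all genes. In the EZ at day 7 Chek1 (0.96 ± 0.29) and Hus1 (0.68 ± 0.12) rose and Wee1, which restrains entry into mitosis, fell by 0.79 ± 0.23. No gene of these groups was called in the PIZ at day 7 or at day 14 in either zone.

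Markers of other cell types moved in the same comparisons. Of 8 microglia markers, 7 rose in the EZ at day 3, 8 in the PIZ at day 3, 8 in the EZ at day 7 and 6 in the EZ at day 14. Their summed level was 1492 to 2643 CPM in the EZ of kainate mice at day 3 against 534.9 to 906.1 CPM in saline mice, and 1850 to 6943 CPM against 461.4 to 507.9 CPM at day 7. In the PIZ it was 1014 to 1240 CPM against 314.0 to 429.2 CPM at day 3 and 438.0 to 858.8 CPM against 330.1 to 424.4 CPM at day 7. Mouse 21, highest in the EZ and lowest in the PIZ for the replication genes at day 7, was so for the microglia markers too (6943 and 438.0 CPM). In the EZ at day 14 the microglia sum was 616.7, 3425, 527.6 and 812.5 CPM after kainate against 422.8 to 449.3 CPM after saline. The value of 3425 CPM was that of mouse 27, in which 23 of the replication genes were highest there. In the EZ of day 3 the lowest p values were those of C1qa (2.57 ± 0.47) and Trem2 (2.08 ± 0.43). Of 7 astrocyte markers, Gfap, Vim, Aqp4 and Aldh1l1 rose in each zone at day 3, 6 in the EZ at day 7 and Gfap, Vim and Aqp4 in the EZ at day 14. Vim, an intermediate filament of reactive astrocytes, rose at day 3 by 3.23 ± 0.51 in the EZ and by 4.54 ± 0.55 in the PIZ. Gfap, which with Slc1a3 had the highest mean CPM of the list, rose by 1.28 ± 0.40 and 3.65 ± 0.44. The sum of the astrocyte markers was 7857 to 8754 CPM against 2796 to 5331 CPM in the EZ at day 3 and 6471 to 7075 CPM against 1452 to 1742 CPM in the PIZ at day 3, and 7683 to 10675 CPM against 1609 to 2071 CPM in the EZ at day 7. In the EZ at day 14 it was 2199, 9122, 2103 and 2909 CPM against 1667 to 1859 CPM, with mouse 27 again the highest. Of 5 oligodendrocyte precursor markers, Olig1, Olig2, Cspg4 and Pdgfra rose in the EZ at day 3, Olig1 and Gpr17 in the PIZ at day 3 and all 5 in the EZ at day 7, with sums of 353.4 to 483.8 CPM against 185.4 to 219.2 CPM, 304.5 to 414.1 CPM against 179.3 to 186.7 CPM, and 250.8 to 595.9 CPM against 164.7 to 186.2 CPM. Olig1 and Gpr17 had the highest mean CPM of that list, and Olig1 rose by 1.53 ± 0.17 in the EZ at day 3. The part of these cell types in the levels of the replication genes was not tested.

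Of 8 markers of neural progenitors and immature neurons, Nes, an intermediate filament of progenitors and of reactive glia, rose (2.81 ± 0.31) and Eomes, which marks intermediate progenitors, fell by 2.77 ± 0.62 in the EZ at day 3. Nes was the one called in the PIZ at day 3 (3.04-fold), and in the EZ at day 7 Nes (2.04 ± 0.31), Sox2 (0.71 ± 0.15) and Tfap2c (2.05 ± 0.57) rose. The sum of the list was 161.6 to 315.1 CPM against 115.7 to 140.6 CPM in the EZ at day 3, 149.7 to 176.8 CPM against 105.7 to 146.9 CPM in the PIZ at day 3 and 140.3 to 185.4 CPM against 97.8 to 130.8 CPM in the EZ at day 7. It was also higher without overlap in the PIZ at day 14, at 158.0 to 185.2 CPM against 109.2 to 134.2 CPM, where no gene of this list or of the 33 was called. In the PIZ at day 7 it was 129.5 to 197.3 CPM against 100.3 to 133.1 CPM and in the EZ at day 14 113.9 to 156.3 CPM against 118.5 to 124.3 CPM, with overlap. Dcx and Sox11, markers of immature neurons, had the highest mean CPM of the list and were not called in these comparisons. Of 7 genes listed for granule cells, not all of them particular to these cells, Neurod6, Dsp and Calb1 fell in the EZ at day 3, Calb1 in the PIZ at day 3 and Neurod6, Rbfox3 and Calb1 in the EZ at day 7, while Slc17a7 and Prox1, with the highest mean CPM, were not called. Slc17a7 had a mean of 1078 CPM over 48 libraries and Prox1 247.0 CPM, so that the sum of the list largely follows Slc17a7. Calb1, a calcium buffer of mature granule cells, fell by 1.20 ± 0.34, 2.37 ± 0.35 and 1.04 ± 0.34, and the sum of the list in the EZ at day 3 was 1007 to 1599 CPM against 1991 to 2355 CPM. Of 5 endothelial markers, Pecam1, Cldn5 and Kdr rose in the EZ at days 3 and 7, and Flt1, with Cldn5 the highest in mean CPM, did not pass. Of 5 fibroblast and meningeal markers, Lum, Col1a1, Col1a2 and Dcn rose in the EZ at both days. Of 6 tested leukocyte markers, Ccr2, Itgal and Ptprc rose in the EZ at both days, Ptprc rose in the PIZ at day 3 (2.78 ± 0.43) and in the EZ at day 14 (2.21 ± 0.41), and Ly6c2, with Ptprc the highest in mean CPM, did not pass. No endothelial or fibroblast marker was called in the PIZ. At day 7 there the fibroblast and meningeal sum was still 39.6 to 122.6 CPM after kainate and 17.4 to 25.6 CPM after saline. The leukocyte sum was 15.2 to 26.4 CPM against 11.2 to 14.7 CPM, also without overlap, and the endothelial sums overlapped. The T cell markers Cd3e and Cd3g had too few counts to be tested and were at 0 in 17 and 21 of the 48 libraries. Of 4 oligodendrocyte markers, Mag rose in the EZ at day 7 (1.07 ± 0.29). Of 4 blood genes, led by Hbb-bs and Hba-a1, none was called. Of 3 tested choroid plexus markers, led by Kl and Ttr, Kl fell in the EZ to 0.352 of the saline level at day 3 and to 0.266 at day 7. Over 48 libraries Kl had a mean of 17.0 CPM, against 0.836 for Ttr, 0.182 for Clic6, 0.139 for Folr1 and 0.0636 for Kcnj13. The fall is that of a single gene and is not read as a change of choroid plexus tissue. The part of these lists too was not tested.

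**Figure D5:**
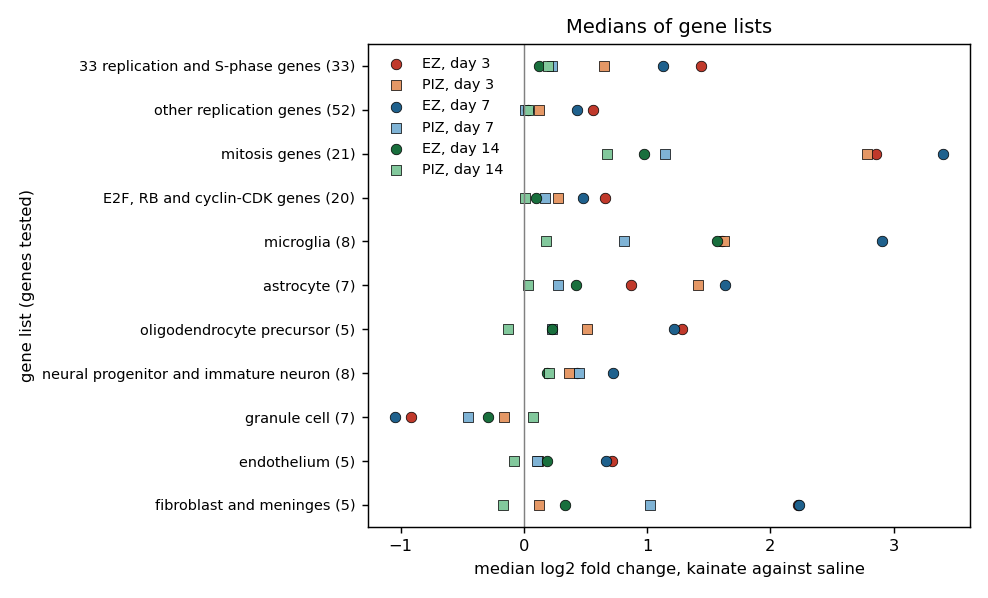
Median log2 fold change of kainate against saline for the 33 replication and S-phase genes and for 10 other gene lists (number of genes tested in brackets), in the EZ (circles) and the PIZ (squares) at days 3, 7 and 14. The median of the 33 genes is 1.43 in the EZ at day 3 and 0.65 in the PIZ, and some points lie under others.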

How the data were processed

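RNA was measured by stranded, paired-end sequencing of polyadenylated transcripts in 48 libraries. The deposited gene counts were made by the authors, per the labels and methods, with fastp 0.20.1, HISAT2 2.2.1 on GRCm39 and featureCounts (Subread 1.6.4) with Gencode M28, and reads that map to several places were counted at their primary alignment, so that counts of genes with near-identical copies are uncertain. The submitters' notes also name DESeq2 1.32.0 and R 4.1.1.

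The members and the other gene lists were chosen with earlier results of these data known. Library by library values are given for the member with the highest mean CPM of each role, for E2f1 and for Dut, the member called lower. From the other lists, those called in the EZ at day 3 with the lowest p values, all called genes where few were called, and for cell type markers those with the highest mean CPM are named. Mcm2, Mcm3, Tk1, Rrm2, Uhrf1, E2f2, Ccne2 and other genes outside this rule were chosen after their values were seen. Some genes that this rule names are not reported here.

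Counts were analysed in R 4.3.3 with edgeR 4.0.16 (filterByExpr over 12 groups, TMM, quasi-likelihood test, 1 mean for each group, no covariate). The thresholds of a call were 0.01 for the adjusted p and 1.5 for the fold change. Scores over the members used log2 CPM with a prior count of 2. Both libraries of a mouse carry its number and come from the same animal, and correlations of their deviations from the group means lay between -0.0536 and 0.376, over 0.1 in 20 of 24 mice. The mouse was therefore used as a block as an alternative, in comparisons between zones. Other alternatives were scaling by RLE or by library size only, a filter of at least 10 counts in every library or none, DESeq2 1.42.0, limma-voom with quality weights (limma 3.58.1), only the groups compared, an adjusted p under 0.05 and each mouse left out in turn. The main edgeR fit was tested on simulated data, for kainate against saline in the EZ at day 3. The other fits and comparisons were not. Promoters came from GRCm39 and Gencode M39, the build of the files, in place of a planned RefSeq table on another build. Of the gene identifiers 98.9% were found in that annotation.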

Additional observations from a re-analysis of the deposited data

Results flagged for a closer look

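Within groups of 4 libraries, the highest or the lowest value was set apart from the others by Dixon's criterion in 11 of 204 groups of values, where chance gives about 10.2 (1 in 20). Of the mean log2 CPM over the 33 genes, mouse 29 stood apart in the saline EZ of day 3 at 2.41, mouse 21 in the kainate PIZ of day 7 at 1.85, and mouse 27 in the kainate PIZ of day 14 at 2.25. In the kainate PIZ of day 7, mouse 21 was also apart for Rrm2 (1.36 CPM) and Uhrf1 (0.996 CPM), both the lowest of the group. Uhrf1 of mouse 27 was apart in the kainate PIZ of day 14 at 2.58 CPM. In saline libraries the values set apart were those of Mcm6 in the PIZ at day 14 (mouse 39, 15.2 CPM), Gins2 in the EZ at day 7 (mouse 20, 1.38 CPM), Pola1 in the PIZ at day 7 (mouse 20, 6.25 CPM), Fen1 in the EZ at day 7 (mouse 34, 10.7 CPM) and Rrm2 in the EZ at day 14 (mouse 28, 2.45 CPM).

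The kainate effect differed between EZ and PIZ at day 7, by the test of the difference itself, for 12 genes. On the log2 scale the difference was 1.24 for Mcm2, 2.15 for Mcm3, 1.41 for Mcm5, 2.08 for Mcm10, 1.23 for Cdc45, 1.14 for Pole, 0.85 for Pcna, 0.90 for Rrm1, 1.46 for Tyms, 3.45 for Tk1, 2.03 for Uhrf1 and 2.07 for E2f2. Mouse 21, low in the PIZ and high in the EZ, enters all of these, and without it none was called.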

How the results depend on the processing

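No called value changed its sign under any alternative run. The 29 calls in the EZ at day 3 were 29 without any single mouse, and 23 of the 27 genes with a value where 10 counts were required in every library. With mice left out, the count was 11 to 17 in the PIZ at day 3 and 23 to 27 higher and 0 to 1 lower in the EZ at day 7. The lower call there, Dut, was 0 when libraries were scaled by size only and when only the groups compared were fitted. The latter fit called 19 genes higher there, and 18 were called with at least 10 counts in every library. In the PIZ at day 7 limma-voom called 1 gene.

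For the difference between zones at day 3, counts were 1 at an adjusted p under 0.05, 1 with DESeq2, 17 with limma-voom and 0 to 2 with mice left out (2 without mouse 44). At day 7 they were 19 higher and 1 lower at an adjusted p under 0.05, 20 and 1 with limma-voom, 4 with only the groups compared (Mcm3, Mcm5, Tyms and E2f2) and 0 to 18 with mice left out. The replicate block, which pairs both zones of a mouse, called 1 gene at day 3 and 8 at day 7, and changed no other count of calls. At day 7 minus day 3, limma-voom called 1 lower in the EZ, and the fit of only the groups compared called 1 lower in the PIZ, Rrm1. For day 14 minus day 7 in the EZ the count lower was 24 at an adjusted p under 0.05, 1 with library size only, 2 with at least 10 counts in every library, 15 with DESeq2 and 25 (1 higher) with limma-voom, whose median was -1.30, and it was 0 to 21 lower and 0 to 1 higher with mice left out. The median difference between saline zones lay between 0.031 and 0.10 at day 7 and between 0.025 and 0.16 at day 14 with mice left out. A prior count of 0.5 moved the mean log2 CPM of 3 saline groups by more than the spread, to 1.81 in the EZ at day 7, 1.73 in the PIZ at day 3 and 1.77 in the PIZ at day 7. The mean was lower with the prior count of 0.5 in every library. These groups had the smallest SD of the 12 groups, at 0.0447, 0.0362 and 0.0220. Depth limits the precision of genes with few reads in saline mice, such as Chaf1b and Tk1, whose lowest counts in a library were 0 and 2.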
